A study of Homo sapiens with 4 samples.

Results

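The genes examined here encode the subunits of the proteasome and the proteins that assemble, activate or inhibit it. They were chosen by symbol alone, as every gene whose name is PSM, a letter from A to G and a number, and 48 of the 60606 genes in the count table met this rule. RNA sequencing of polyA RNA was performed on 4 libraries from LNCaP-DaroR, a line of prostate cancer LNCaP cells made resistant to the antiandrogen darolutamide and kept in 10 μM of the drug. All 4 cultures grew in RPMI1640 with FBS and antibiotics. The 2 siControl libraries came from cells given a control siRNA and the 2 siLOC730101 libraries from cells given 20 nM siRNA against the lncRNA LOC730101, with no other difference in genotype or drug named. The study asked what this lncRNA does in resistant cells, and a single resistant line without its parental cells was available for this comparison.

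The proteasome degrades proteins that have been tagged with ubiquitin. Its barrel-shaped core is built from rings of α subunits (PSMA genes), which gate the entrance, and rings of β subunits (PSMB genes), of which PSMB5, PSMB6 and PSMB7 carry the proteolytic sites. The regulatory cap holds a ring of ATPases (PSMC genes) that unfold the substrate and non-ATPase subunits (PSMD genes) that bind and remove ubiquitin. Most subunit genes are active in every cell, and cells that lack proteasome activity raise their transcription through NFE2L1, a factor that binds antioxidant response elements.

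The libraries held 39213498 to 53368158 counts, of which the members took 0.51% to 0.55%. LOC730101, listed as ENSG00000216775, was counted 2560 and 2370 times in siControl and 633 and 680 times in siLOC730101, a log2 fold change of -1.56 with an adjusted p of 4.34e-06 in edgeR. The luminal prostate markers KLK3 and KRT8 were abundant, while PTPRC, COL1A2, KRT5, TP63 and CHGA were at 0 in all libraries, PECAM1 had at most 2 counts, and COL1A1, VIM and SYP had from 86 to 797.

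Short stretches of promoter are shown first, from a search for elements through which subunit genes are known to be controlled together. RefSeq gave a promoter (GRCh38.p14, 250 bases before to 50 after the gene start) for 42 of the 48 members. PSMA7, PSMB1, PSMB6, PSMB7, PSMD4 and PSMG3 had none there. The core of the antioxidant response element, searched as TGACNNNGC on both strands, was found in 13 of the 42 promoters (31.0%) and in 13.6% of all 27305 promoters. The CCAAT box, the element bound by NF-Y, was found on either strand in 19 of the 42 (45.2%) and in 35.7% of all promoters. The members' promoters had a median GC content of 62.0%, against 58.3% for all. The windows below run 5′ to 3′ on the strand of the gene, with the match in capitals. The first 4 carry TGACNNNGC in genes of the cap, the core, and assembly. The last 3 carry CCAAT in PSMB5, which had the highest log2 fold change of the standard core and cap genes, and in a pair of α subunit genes, each of which held 2 such boxes.
PSMD3, chr17:39980757-39980791, + strand: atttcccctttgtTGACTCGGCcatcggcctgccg
PSMB3, chr17:38752624-38752658, + strand: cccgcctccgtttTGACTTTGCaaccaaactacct
PSMD12, chr17:67366721-67366755, - strand: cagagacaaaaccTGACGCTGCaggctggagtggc
PSMG1, chr21:39183613-39183647, - strand: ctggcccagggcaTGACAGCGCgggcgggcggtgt
PSMB5, chr14:23035367-23035397, - strand: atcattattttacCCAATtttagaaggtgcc
PSMA3, chr14:58244812-58244842, + strand: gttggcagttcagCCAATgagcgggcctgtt
PSMA5, chr1:109426514-109426544, - strand: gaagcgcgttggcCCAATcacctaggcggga
These matches mark letters in a window and do not show that a factor was bound there.

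All 14 genes of the standard core and all 17 of the cap had counts in every library of DaroR cells. Levels between genes are given as CPM, each library's counts relative to its TMM-scaled total, divided by the length of the canonical transcript in kilobases, and each is the mean of the 4 libraries unless a group is named. PSMA7 of the α ring (234), PSMB4 of the β ring (233) and PSMD8 of the cap (214) had the highest levels per kilobase, and the median of the 48 members was 45.5. In the siControl libraries PSMA7 was 220 ± 13.5 (SD, n = 2) and PSMB4 was 231 ± 17.2. PSMB4 was above PSMA7 in both siControl libraries (219 and 243 against 210 and 229). It was below PSMA7 in both siLOC730101 libraries (218 and 251 against 228 and 269). PSMD8 was 197 ± 12.7 in siControl and the lowest of the 3 in every library. The proteolytic subunits stood close together at 112 for PSMB5, 116 for PSMB6 and 106 for PSMB7.

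**Figure D1:**
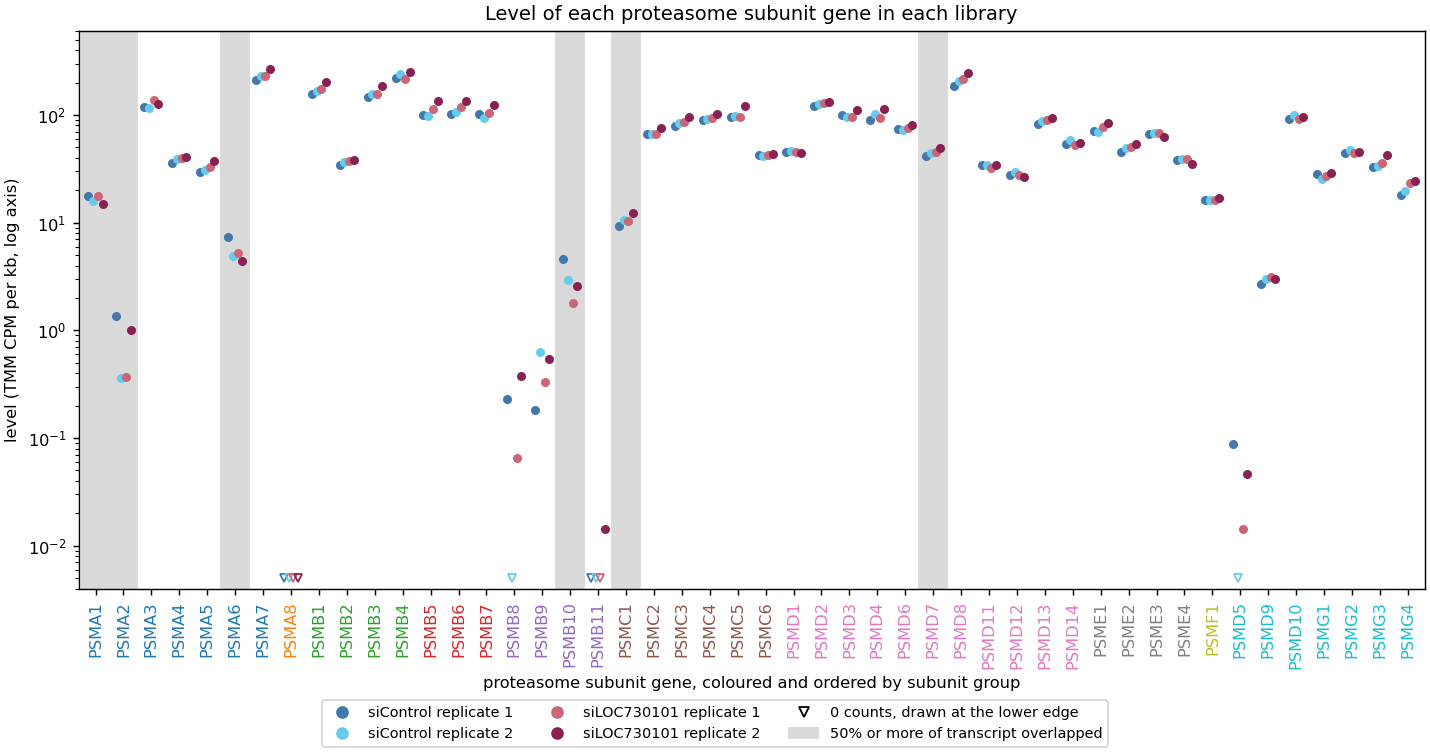
Level of each of the 48 members in each library, as TMM-scaled CPM per kilobase of canonical transcript on a log axis, with 1 point per library, genes coloured and ordered by subunit group, and open triangles for 0 counts. Most members lie between 16.4 and 234 on average, while PSMA8 and the inducible and thymic β genes sit far below, as do PSMA2, PSMA6, PSMD5 and PSMD9. Grey columns mark the 6 members with at least 50% of the transcript under exons of another gene.

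The α ring needs all of PSMA1 to PSMA7, yet the counts of these genes differed widely. PSMA3, PSMA4, PSMA5 and PSMA7 lay between 32.9 and 234 CPM per kilobase. PSMA1 was at 16.5, PSMA6 at 5.49 and PSMA2 at 0.774. PSMA2 was counted 105 and 24 times in siControl and 22 and 55 times in siLOC730101, so that even libraries of the same group differed several-fold. PSMA6 had 407, 233, 222 and 173 counts in the same order, and PSMA1 had 1135, 887, 864 and 673.

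The 3 low α subunit genes shared a feature of the annotation. The other gene's exons covered 100% of the canonical transcript of PSMA2, 81.4% of that of PSMA6 and 67.0% of that of PSMA1, and 0% for the remaining 4 α genes. The covering genes are ENSG00000256646 for PSMA2, ENSG00000258790 for PSMA6 and ENSG00000256206 for PSMA1, all on the same strand as the member. These covering genes were themselves near 0, with at most 16 counts in any library. The counting program leaves out a read that touches exons of more than 1 gene unless told otherwise, and the recorded command held no such option. What the counts of these genes would be with the shared reads included was not tested.

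Among all 48 members, 6 had 50% or more of the canonical transcript covered, namely PSMA1, PSMA2, PSMA6, PSMB10, PSMC1 and PSMD7, and their median level per kilobase was 8.04, against 60.9 for the 36 members with no overlap. PSMC1, an ATPase covered over 83.2% of its transcript by NRDE2 on the opposite strand, had the lowest level of the 6 ATPase genes at 10.6, and the other 5 lay between 42.5 and 103. PSMD7, a lid subunit covered over 51.6%, was at 45.1 and within the range of the other non-ATPase genes of the cap, 28.0 to 214. PSMD9, an assembly chaperone covered over 28.8%, was at 2.94. Reads in an overlap may be missing from these counts, so these orders are of the deposited counts and not of the transcripts.

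**Figure D2:**
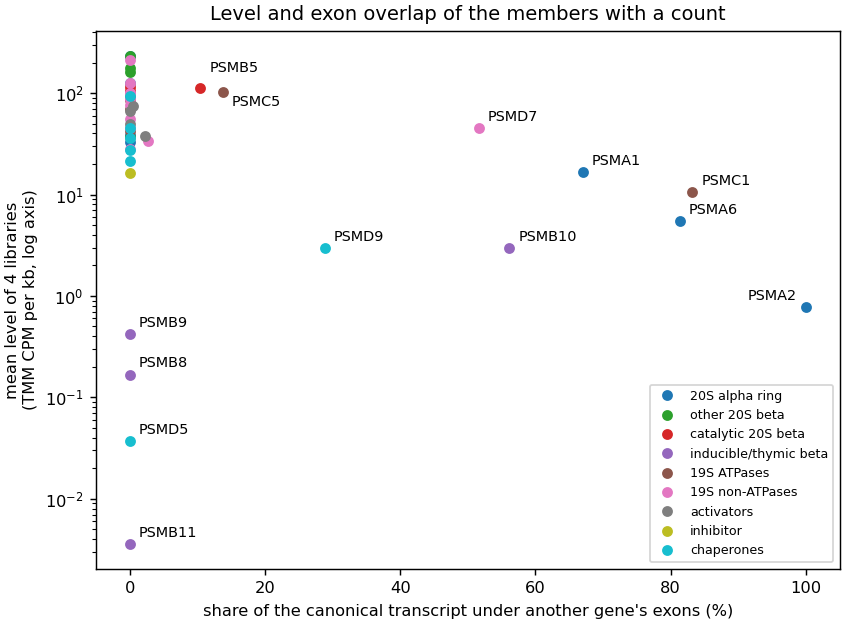
Mean level per kilobase of the 47 members with any count (y, log axis) against the percent of the canonical transcript that lies under exons of another gene (x), with each point 1 gene coloured by subunit group. The 6 genes at 50% or more lie between 0.774 and 45.1, and a separate set at 0% overlap, PSMB8, PSMB9, PSMB11 and PSMD5, lies below 0.5.

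A further set of low genes had no such overlap of the canonical transcript. Over all exons used for counting, 17.3% of PSMB8 and 5.2% of PSMB9 lay under exons of another gene. PSMA8, the α subunit of the testis, had no count in any library. A count of 0 allows up to 3 in each, by counting error only and with counts taken as independent. PSMB11, the thymic β subunit, had 0, 0, 0 and 1 counts. PSMB8 and PSMB9, which interferon induces and which replace PSMB5 and PSMB6 in the immunoproteasome, had at most 16 and 30 counts in any library. PSMD5, a chaperone of cap assembly whose gene lies at chr9:120815496-120842951, had 16, 0, 2 and 6 counts. PSMD5 differed in this from the other cap chaperone free of overlap, PSMD10, which had 5308 to 7335 counts.

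The share of inducible subunits in each catalytic pair was small. On levels per kilobase, PSMB8 made up 0.231% and 0% of the sum of PSMB8 and PSMB5 in the siControl libraries and 0.0567% and 0.277% in the siLOC730101 libraries. PSMB9 made up 0.178%, 0.587%, 0.279% and 0.404% of its pair with PSMB6. For both pairs the libraries of the groups overlapped. PSMB10 made up 4.3% and 3.01% of its pair with PSMB7 in the siControl libraries and 1.68% and 2.05% in the siLOC730101 libraries, so that the groups did not overlap, with 56.1% of the PSMB10 transcript covered.

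The comparison of siLOC730101 with siControl asked whether any of these levels moved with the lncRNA. Of the 48 members, 45 passed the filter on low counts. PSMA8, PSMB11 and PSMD5 did not. With the quasi-likelihood test of edgeR and a Benjamini-Hochberg adjusted p below 0.05, 0 members were called higher and 0 lower, where 0.212% of all 19349 genes tested were called higher and 0.0724% lower (41 and 14 genes, or 58 and 35 when scaled by library size only). At an unadjusted p under 0.05, 9 members were higher and 1 was lower (PSMB10), against 6.43% and 4.39% of all genes. Of the 1937 genes at or above the members' median CPM, 280 were higher and 94 lower at that threshold. Other tools and settings called from 0 to 10 members. PSMB5 alone was called higher without the filter (adjusted p = 0.0121, 1.01% of genes called higher) and in DESeq2 (adjusted p = 0.0232, 2.36% called higher).

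**Figure D3:**
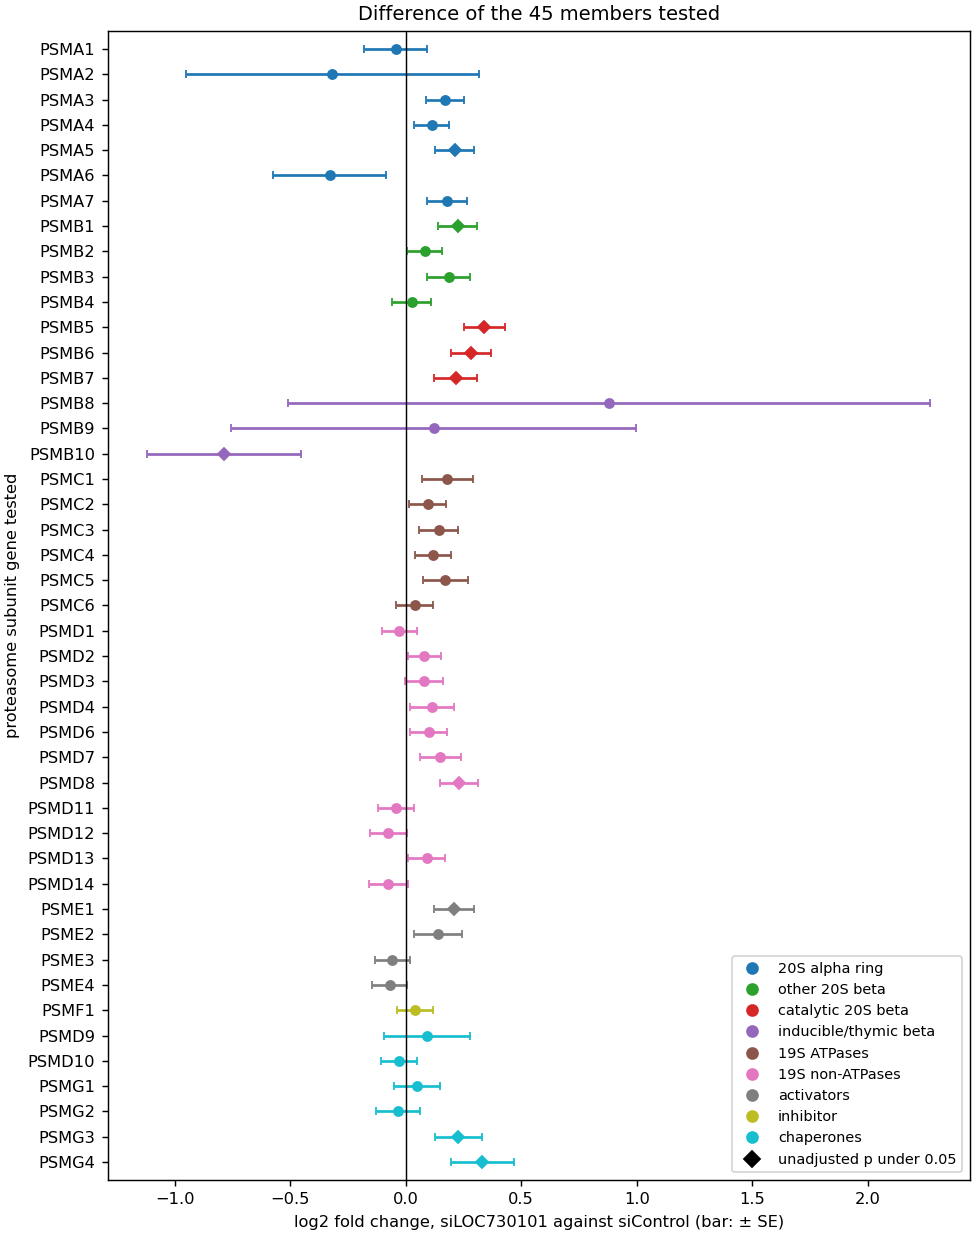
Log2 fold change of siLOC730101 against siControl for the 45 members tested, with bars of 1 SE from the edgeR fit, ordered and coloured by subunit group, and diamonds for an unadjusted p under 0.05. The 3 catalytic genes lie at 0.22 to 0.34, and the 3 with the widest bars, PSMB8, PSMB9 and PSMA2, have few counts.

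Most differences pointed upward and were small. The log2 fold change was above 0 for 33 of the 45 members (73.3%), against 49.6% of all genes tested, and its median was 0.0988 against -0.00213. Genes at or above the members' median CPM, 1937 in number, were above 0 in 59.7% with a median of 0.0287. Both siLOC730101 libraries lay above both siControl libraries for 21 members and below them for 1 (PSMB10), where 21.3% and 20.5% of all genes did so. Of the 1937 genes at or above the members' median CPM, 628 lay above and 371 below.

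The catalytic β genes differed most among the groups with many counts. Their summed CPM was 289.4 and 281.9 in the siControl libraries and 321.7 and 373.2 in the siLOC730101 libraries, without overlap. PSMB5, the chymotrypsin-like site and the main target of bortezomib, had 5619 and 4765 counts in siControl and 4914 and 5351 in siLOC730101. After scaling this was 104 and 102 CPM against 120 and 141, so that siLOC730101 replicate 2 was well above the others. The log2 fold change of PSMB5 was 0.34 (SE 0.0892) with an adjusted p of 0.131 in edgeR. PSMB6, the caspase-like site, was at 83.9 and 88.0 CPM against 98.6 and 111, also without overlap, with a log2 fold change of 0.28 (SE 0.0865, edgeR adjusted p = 0.191). PSMB7, the trypsin-like site, was at 102 and 92.1 CPM against 103 and 122, and its log2 fold change of 0.22 (SE 0.0935) had an edgeR adjusted p of 0.406. It was 0.093 without siLOC730101 replicate 2 and 0.34 without replicate 1.

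The inducible counterparts had few counts. PSMB10 had 245 and 133 counts in siControl and 72 and 96 in siLOC730101, a log2 fold change of -0.79 (SE 0.333, edgeR adjusted p = 0.397), which was -0.41 without siControl replicate 1. ENSG00000261884, the gene whose exons cover PSMB10, had 91, 70, 35 and 40 counts. PSMB8 had 14, 0, 3 and 16 counts with a log2 fold change of 0.88 (SE 1.39), and PSMB9 had 10, 30, 14 and 21 counts with 0.12 (SE 0.876). For PSMB8 and PSMB9 the standard error exceeds the difference.

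In the rest of the core, PSMB1 (log2 fold change 0.22), PSMB3 (0.19), PSMB2 (0.082) and PSMB4 (0.025) were all above 0, although PSMB4 fell below it with library size only or upper-quartile scaling and to -0.084 without siLOC730101 replicate 2, and the lowest edgeR adjusted p was 0.321. PSMB1 and PSMB2 had groups that did not overlap, and PSMB3 and PSMB4 had groups that did. In the α ring, PSMA5 (0.21), PSMA7 (0.18), PSMA3 (0.17) and PSMA4 (0.11) were above 0 and the overlapped genes PSMA1 (-0.044), PSMA2 (-0.32) and PSMA6 (-0.33) below. PSMA2 and PSMA6 turned positive, to 0.95 and 0.0024, when siControl replicate 1 was left out, and PSMA2 changed sign in 2 of the alternatives, so that single libraries decided these directions. Summed over the 14 standard core genes, the level was 1513 and 1582 CPM in siControl and 1643 and 1824 in siLOC730101.

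The cap differed less. All 6 ATPase genes had a log2 fold change above 0, from 0.039 for PSMC6 to 0.18 for PSMC1, with a lowest edgeR adjusted p of 0.56. Of the 11 non-ATPase genes, 7 were above 0 and 4 below. PSMD8, a lid subunit, had 285 and 312 CPM in siControl and 327 and 374 in siLOC730101, and its log2 fold change of 0.23 (SE 0.082) had an edgeR adjusted p of 0.274. The scaffold gene PSMD2 was at 0.08, the ubiquitin receptor gene PSMD4 at 0.11, and PSMD1 at -0.028. PSMD14, the deubiquitinase that removes ubiquitin chains from substrates, had 85.1 and 92.5 CPM against 82.7 and 85.7, with a log2 fold change of -0.076 (SE 0.0847, edgeR adjusted p = 0.818). Its groups overlapped.

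Of the 4 activator genes, 2 lay above 0 and 2 below, and the pairs were not tested against each other. PSME1 and PSME2 form the interferon-responsive ring that opens the core, and both had groups without overlap. PSME1 had 68.0 and 66.8 CPM against 75.2 and 80.5, with a log2 fold change of 0.21 (SE 0.0863, edgeR adjusted p = 0.376). PSME2 had 35.6 and 39.5 against 40.2 and 42.6, with 0.14 (SE 0.104, edgeR adjusted p = 0.693). The nuclear activators PSME3 and PSME4 had log2 fold changes of -0.059 (SE 0.0752) and -0.070 (SE 0.0768), with edgeR adjusted p of 0.854 and 0.816 and overlapping groups, and PSME4 was at 0.0037 without siLOC730101 replicate 2. PSME3 had 11531 and 10222 counts in siControl and 8821 and 7583 in siLOC730101, and PSME4 had 15137, 13335, 11655 and 9664. The inhibitor gene PSMF1 had 131 and 132 CPM against 132 and 139, with 0.041 (SE 0.0776, edgeR adjusted p = 0.913). None of these genes was separated from 0 by the test. The trend with transcript length described below stood at 0.22 for PSME1, 0.25 for PSME2, 0.03 for PSME3 and -0.028 for PSME4. PSME1 and PSME2 lay below the CPM of the genes it was fitted on. Less a trend over all genes, PSME1 was at 0.14, PSME2 at 0.09, PSME3 at -0.056 and PSME4 at -0.028.

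Among the assembly chaperones, the pair PSMG3 and PSMG4, which help to build the α ring, lay above 0. PSMG4 had 14.2 and 15.6 CPM against 18.3 and 19.1, with a log2 fold change of 0.33 (SE 0.137, edgeR adjusted p = 0.375), and PSMG3 had 47.5 and 48.3 against 51.3 and 60.9, with 0.23 (SE 0.102, edgeR adjusted p = 0.439). Both were without overlap between groups, and PSMG3 ranged from 0.097 without siLOC730101 replicate 2 to 0.36 without replicate 1. The partner pair PSMG1 and PSMG2 had 0.049 (SE 0.0985) and -0.035 (SE 0.0944), with 45.1 to 50.8 CPM for PSMG1 and 48.0 to 51.0 for PSMG2 over the 4 libraries. PSMD9 had 399, 382, 348 and 307 counts with 0.092 (SE 0.187), and PSMD10 had 7335, 6827, 5578 and 5308 with -0.031 (SE 0.0786). These 4 chaperone genes had edgeR adjusted p from 0.921 to 0.943 and groups that overlapped.

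The positive differences were larger in 1 of the 2 knockdown libraries. The median log2 ratio of the members to the siControl mean, on log2(CPM + 1), was 0.0496 in siLOC730101 replicate 1 and 0.155 in replicate 2, where the median of all genes was 0.00202 and -0.000181. Of the 45 members, 37 (82.2%) were higher in replicate 2 than in replicate 1 of the same group, against 51.6% of all genes. Between the siControl libraries, 30 (66.7%) were higher in replicate 2, against 49.7% of all genes. The members' median log2 difference, replicate 2 less replicate 1, was 0.0972 in siLOC730101 and 0.046 in siControl. Without siLOC730101 replicate 1, 10 members were called higher in edgeR, namely PSMA5, PSMA7, PSMB1, PSMB3, PSMB5, PSMB6, PSMB7, PSMC5, PSMD8 and PSMG3, while 4.3% of all genes were called higher. PSMB5 then had a log2 fold change of 0.46 (edgeR adjusted p = 7.54e-06), and 0.22 without replicate 2. Leaving out replicate 2 turned the sign of, among others, PSMD4 to -0.031 and PSMF1 to -0.0012. In both fits the lone siLOC730101 library is assumed to vary like the siControl pair.

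**Figure D4:**
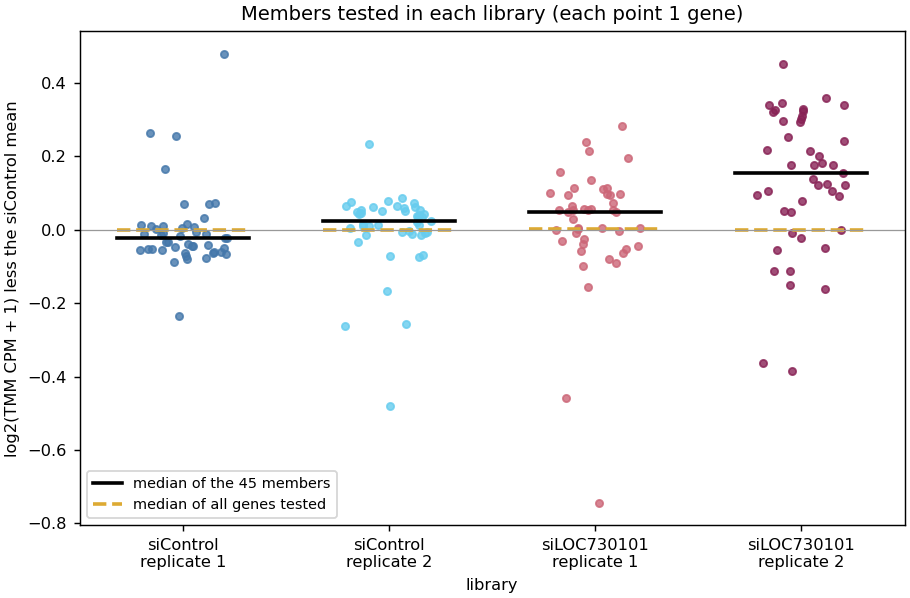
Log2(TMM CPM + 1) of each of the 45 members tested less its siControl mean (y), in each library (x), with 1 point per gene, solid bars for the members' median and dashed bars for the median of all genes tested. The members' median is 0.0496 in siLOC730101 replicate 1 and 0.155 in replicate 2, and the median of all genes stays near 0.

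The difference varied with transcript length. Across the 45 members, Spearman's rho between canonical transcript length and log2 fold change was -0.395. Across the 1929 genes with a length at or above the members' median CPM it was -0.529, and for the difference between the 2 siLOC730101 libraries, which had the same treatment, it was -0.696. It was -0.3 between the 2 siControl libraries. These are descriptions across genes of the same 4 libraries, and genes are not independent replicates.

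Members with a transcript under 1500 nucleotides, 23 in number, had a median log2 fold change of 0.17, where the 229 genes of that length at or above the members' median CPM, members included, had 0.202. The 22 longer members had 0.081, where the 1700 longer genes at that level had 0.0161. The short and long members were taken at any CPM, so the sets set side by side here differ in level. The 23 members at or above the median CPM had a median log2 fold change of 0.0897, with 17 above 0. After the trend with length among genes at that level was taken off, their median was -0.00821 and 10 were above 0. At the length of PSMB5 the trend stood at 0.20, at that of PSMB6 at 0.25 and at that of PSMB7 at 0.22. The genes themselves had 0.34, 0.28 and 0.22, and all of them lay below the members' median CPM. Less the trend with length over all genes, they were at 0.27, 0.23 and 0.15. The part of length in the differences of single members was not tested further.

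**Figure D5:**
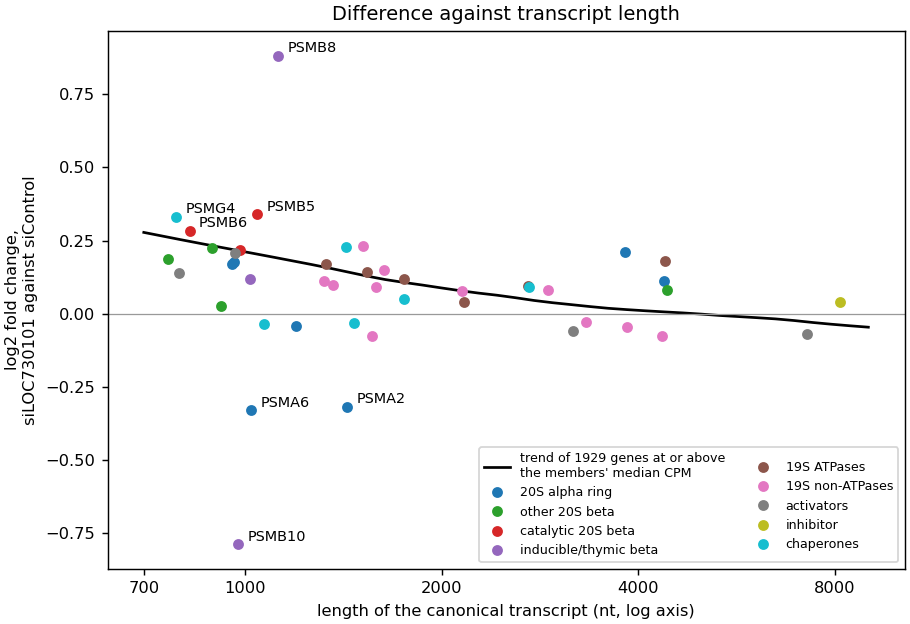
Log2 fold change of the 45 members tested (y) against the length of the canonical transcript in nucleotides (x, log axis), with 1 point per gene coloured by subunit group and a line for the lowess trend of 1929 genes at or above the members' median CPM. Short members such as PSMG4, PSMB6 and PSMB7 lie near the line, although their own CPM is below that of the genes it was fitted on. PSMA5 (0.21 against 0.0145), PSMC1 (0.18 against 0.00627), PSMB5 (0.34 against 0.20) and, with few counts, PSMB8 lie above the line, among others. PSMA6, PSMA2 and PSMB10 lie far below, and PSMB4, PSMG2, PSMA1 and PSMD14 also lie below.

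Members with and without a promoter motif were compared only by their medians. Those with TGACNNNGC, 12 tested, had a median log2 fold change of 0.0845, with 8 above 0, and the 27 without it had 0.0897, with 19 above 0. The 18 with CCAAT had 0.109, with 14 above 0, and the 21 without it had 0.0409, with 13 above 0.

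No gene of the 4 lists of related genes was called in edgeR's main fit, which used all 4 libraries with the filter, TMM and no covariates. Of 20 partners outside the naming rule, 12 were above 0, with a median of 0.0297. ADRM1, a ubiquitin receptor of the cap, had 3152 and 2818 counts in siControl and 2889 and 2889 in siLOC730101, with a log2 fold change of 0.30 (edgeR adjusted p = 0.17). Without siLOC730101 replicate 1 it was 0.37 (edgeR adjusted p = 0.00949). The small lid subunit gene SEM1 was at 0.20, but at -0.04 without siLOC730101 replicate 2 and at 0.42 (edgeR adjusted p = 0.00531) without replicate 1. Lowest were IPO9 (-0.14) and DDI2 (-0.18), the protease that activates NFE2L1. Of 10 genes that control proteasome transcription, 4 were above 0, among them NFYB (0.14), NFYC (0.12) and NFE2L1 (0.086), with SEL1L at -0.17 and a list median of -0.062.

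Of 11 genes for ubiquitin supply and extraction, 8 were above 0, from -0.048 for VCP and -0.038 for UBA1 to 0.17 for UBB, a ubiquitin gene, and 0.32 for UBXN1, a VCP cofactor (edgeR adjusted p = 0.189, and 0.000506 without siLOC730101 replicate 1). Of 16 genes of MHC class I antigen processing, 14 were above 0 with a median of 0.161, and none was called in edgeR's main fit. TAP2 (0.65), with 61, 16, 51 and 41 counts, was among the highest, and PDIA3 (-0.065) and ERAP1 (-0.036) were the lowest. HLA-B had 1, 502, 642 and 529 counts and HLA-C 1040, 2, 338 and 734, so that libraries of the same group differed widely in these near-identical genes. HLA-B was called without the filter (edgeR adjusted p = 6.14e-11) and when some single libraries were left out, and the values of both genes are uncertain.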

How the data were processed

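The 4 libraries were grouped by their labels. The authors deposited raw counts per gene, made from trimmed reads with featureCounts 2.0.1 on hg38 and gencode 41, as the file header states; the sources name both STAR and BWA as aligner and both hg19 and hg38. The header's command has no paired, strand or multi-overlap option. Even values made up 66.0% to 70.1% of the counts from 1 to 20.

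Counts were tested in R 4.3.3 with edgeR 4.0.16 (filterByExpr, TMM, legacy quasi-likelihood fit without covariates, Benjamini-Hochberg over 19349 genes, threshold 0.05), and with DESeq2 1.42.0 as an alternative. Of these steps, only the edgeR fit was tested on simulated counts, with planted changes larger than any member's difference. That test cannot show whether differences as small as those of the members would be called. The 2 libraries of a group differed by more than sampling noise (chi-square per degree of freedom 10.74 and 13.17). P-values measure only the spread between these libraries, which may be technical, and an exact permutation test of 2 against 2 cannot go below 0.333. Canonical transcript lengths and overlaps came from a GRCh37 annotation (gencode v44lift37), matched by symbol to 97.7% of genes tested; this scale was chosen after seeing the data, and division by the table's exon length gave a similar order (Spearman's rho 0.903). Of 42 pseudogene entries of members, 30 were at 0 in all libraries. The members and lists were chosen with earlier results of these data known. Fully described are the catalytic genes and their counterparts, activators, inhibitor, chaperones, PSMD14, any gene called, and the 3 highest and 3 lowest members with a mean normalized count above 50; of each list, the 2 highest and 2 lowest. PSMD8, PSMA1, PSMA2 and other members were added for their values.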

Additional observations from a re-analysis of the deposited data

How the results depend on the processing

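The median log2 fold change of the members moved by less than the spread between library pairs, 0.0727, in every planned setting. That spread comes from the same 4 libraries, so it cannot judge the settings that left a library out. The median ranged from 0.0607 to 0.0988 over other scalings, filters and tools, and from 0.0455 to 0.168 when each library was left out. Less a trend with length over all genes it was 0.0796, and it was 0.105 for the 36 members with under 10% of the transcript overlapped; both were chosen after seeing the data. For the 23 members at or above the median CPM, less the trend with length at that level, also chosen later, it was -0.00821. No member was called lower in any of these settings. The number called higher rose from 0 to 1 without the filter, 1 in DESeq2 and 3 with a replicate block, and was 0 to 10 when a library was left out, the highest without siLOC730101 replicate 1. With the replicate block, 2.51% of all genes were called higher. The 3 members were PSMB5, PSMB6 and PSMD8 (edgeR adjusted p = 0.00259, 0.0289 and 0.0365). Of each of the other lists, only the 2 highest and 2 lowest genes were looked up in these settings. Among those, ADRM1, UBXN1 and HLA-B were also called with the block (edgeR adjusted p = 0.0297, 0.0164 and 2.64e-24). Over all 19349 genes, the deviations of siControl 1 and siLOC730101 1 from their group means correlated at 0.0265. Genes with few counts weigh as much there as others, so this cannot decide whether the replicate numbers mark pairs. At or above the members' median CPM, Spearman's rho of length with replicate 2 less replicate 1 was -0.696 in siLOC730101 and -0.3 in siControl. The members were also mostly higher in replicate 2 than in replicate 1, in siLOC730101 (82.2%) and in siControl (66.7%). Among all genes, calls higher and lower numbered 41 and 14, against 58 and 35 with library size only, 324 and 113 without the filter, 244 and 77 in DESeq2, 485 and 167 with the block, 87 and 24 with the legacy method off, and 77 to 923 and 26 to 272 when a library was left out. Of the 45 members tested, 30 kept their sign in every alternative and 15 did not. Genes with under 50 counts, such as PSMB8 and PSMB9, are limited by depth, and any reads lost to overlapping genes cannot be recovered from counts. The causes of these shifts were not tested.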
